A study of Homo sapiens with 12 samples.

Results

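My5.LV cells were followed through a lenalidomide time course with 1 miScript miRNA PCR Array at each of 3 times, 3 of the 12 arrays of the series. OCI-My5 is a human multiple myeloma cell line. My5.LV is its derivative with the lentiviral vector alone, which was sorted by GFP, expresses little cereblon (CRBN) and is resistant to immunomodulatory drugs (IMiDs). All 3 arrays held these vector cells. The first held un-treated cells (0 h), the second cells given 10 µM lenalidomide for 3 days (72 h), and the third cells given 10 µM lenalidomide for 5 days (120 h). Each array has 384 wells, of which 12 hold controls and all the others hold 1 human miRNA assay each. Every miRNA assay was a member of the comparison, chosen by name and without regard to its values. The study asked how the steady-state levels of miRNAs move with the time of lenalidomide treatment in IMiD-sensitive and IMiD-resistant cells. A time-matched array without drug was not analysed here, so the effects of drug and of time in culture cannot be told apart. The array assays no mRNA, so the levels of CRBN and AGO2 could not be checked on it.

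A miRNA is cut by DICER from a hairpin that carries the 5p strand on its 5′ arm and the 3p strand on its 3′ arm, and 1 strand usually stays bound to an Argonaute protein such as AGO2 while the other is degraded. Bases 2 to 8 of the mature miRNA, the seed, pair with target mRNAs, and miRNAs with the same seed form a family. Lenalidomide binds CRBN, the substrate receptor of an E3 ubiquitin ligase, and thereby redirects it to Ikaros and Aiolos, transcription factors that myeloma cells depend on. The study placed AGO2, which stabilises and carries miRNAs, among the binding partners of CRBN.

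The mature sequences below are those of the miRNAs on which the results turn, read from RefSeq (GRCh38.p14), with the seed in capitals. Those lowest at 120 h against un-treated cells come first, each beside a relative with the same seed or its partner arm where 1 is shown.
miR-302c-3p: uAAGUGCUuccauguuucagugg
miR-302a-3p: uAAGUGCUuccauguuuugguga
miR-372-3p: aAAGUGCUgcgacauuugagcgu
miR-300: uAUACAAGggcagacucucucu
miR-381-3p: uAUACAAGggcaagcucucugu
miR-431-5p: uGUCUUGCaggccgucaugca
miR-643: aCUUGUAUgcuagcucagguag
miR-379-5p: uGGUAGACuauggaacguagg
miR-212-3p: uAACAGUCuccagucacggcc
miR-132-3p: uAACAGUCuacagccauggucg
miR-708-5p: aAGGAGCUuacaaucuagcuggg
miR-155-5p: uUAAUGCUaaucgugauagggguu
miR-155-3p: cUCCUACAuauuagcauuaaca
miR-191-3p: gCUGCGCUuggauuucgucccc
miR-191-5p: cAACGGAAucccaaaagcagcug
miR-186-3p: gCCCAAAGgugaauuuuuuggg
miR-342-3p: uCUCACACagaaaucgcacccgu
miR-342-5p: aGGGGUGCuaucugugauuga
The miRNAs highest at 120 h against un-treated cells follow, with miR-133a-3p beside miR-133b as a relative with the same seed.
miR-542-5p: uCGGGGAUcaucaugucacgaga
miR-551b-3p: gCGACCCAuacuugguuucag
miR-143-3p: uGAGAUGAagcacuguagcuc
miR-200a-3p: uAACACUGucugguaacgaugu
miR-139-5p: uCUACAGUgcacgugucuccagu
miR-10a-5p: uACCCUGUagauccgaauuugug
miR-135a-5p: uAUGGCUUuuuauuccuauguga
miR-133b: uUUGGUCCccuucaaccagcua
miR-133a-3p: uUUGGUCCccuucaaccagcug
miR-223-3p: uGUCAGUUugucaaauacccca
miR-361-5p: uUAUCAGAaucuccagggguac

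The strands that were lowest came from unlinked parts of the genome, apart from a group in the imprinted DLK1-DIO3 region of chromosome 14. miR-302c-3p lies at chr4:112648366-112648388 on the minus strand, inside the span of LARP7. The positions of miR-431-5p (chr14:100881026-100881046, within the span of RTL1), miR-379-5p (chr14:101022071-101022091) and miR-300 (chr14:101041414-101041435) are on the plus strand of that imprinted region. Both arms of miR-155 come from chr21:25573983-25574006 and chr21:25574022-25574043. miR-212-3p is at chr17:2050290-2050310 on the minus strand and miR-132-3p, from the neighbouring hairpin, at chr17:2049929-2049950. Within the spans of protein-coding genes lie miR-191-3p (chr3:49020631-49020652, DALRD3 and NDUFAF3), miR-342-3p (chr14:100109715-100109737, EVL), miR-708-5p (chr11:79402077-79402099, TENM4) and miR-643 (chr19:52281857-52281878, ZNF766). Of the miRNAs that were highest, miR-542-5p (chrX:134541400-134541422), miR-223-3p (chrX:66018937-66018958) and miR-361-5p (chrX:85903681-85903702, in CHM) are X-linked, miR-143-3p is at chr5:149428978-149428998 in the non-coding gene CARMN, and miR-10a-5p at chr17:48579904-48579926 in the span of HOXB3.

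Each well gives a threshold cycle (Ct), the PCR cycle at which its signal crosses the threshold, so that a Ct higher by 1 cycle stands for a level about 2 fold lower. Undetermined wells and those above 35 cycles were given a Ct of 35, the cap. From each Ct the mean of 6 small-RNA control wells of the same array was then subtracted, which are RNU6-2 and 5 SNORD assays (61, 68, 72, 95 and 96A). All fold changes below are on this normalized scale, as log2 values unless called a fold. Under the cap were 354 miRNAs at 0 h, 357 at 72 h and 354 at 120 h. The mean Ct of the control wells was 20.16 at 0 h, 20.37 at 72 h and 19.60 at 120 h. Within the time course the 120 h array stood apart in its positive PCR control. Its 2 wells read 17.31 and 18.15 there, against a range from 18.85 to 19.19 on the 0 h and 72 h arrays. In the sister line My5.CRBN, used for comparison below, these wells also read early under lenalidomide, at 17.31 and 17.82 (72 h) and 18.12 and 18.72 (120 h). SNORD72 also moved on the 120 h My5.LV array, with a log2 change of -0.72 against 0 h while RNU6-2 differed by 0.11. The standard deviation of the 6 control wells' log2 changes, the measure of spread used here, was 0.18 for 72 h against 0 h, 0.41 for 120 h against 0 h and 0.56 for 120 h against 72 h. These wells read from Ct 17.81 to 22.92, so their spread does not cover scarcer miRNAs. For 72 h against 0 h the SD over miRNAs was 0.20 under Ct 22 and 0.85 at Ct 32 and over, by Ct in un-treated My5.CRBN cells. Each time has a single array, so replicates could not be compared, no test was possible, and precision is limited by how few arrays there are. Of the blood-lineage markers, miR-142-3p, specific to blood cells, had the lowest Ct of all miRNAs on the un-treated array (16.62), miR-150-5p of lymphoid cells was at 19.76 and miR-155-5p of activated B cells at 31.21. Erythroid miR-144-3p was at the cap, miR-451a at 29.49 and miR-486-5p at 26.60. Markers of other tissues were not all absent, since muscle miR-1 read 21.33 and miR-133b 24.49.

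After 3 days of lenalidomide the miRNAs of My5.LV cells lay close to those of un-treated cells. Past the 3 fold threshold on the higher side were only 2 miRNAs (0.538%), and on the lower side another 2 (0.538%), while 332 miRNAs (89.2%) were within 2 fold. The median log2 change was -0.12 with an SD over miRNAs of 0.59. miR-551b-3p was at Ct 32.13 at 0 h and 30.34 at 72 h, which is 4.03 fold higher. miR-508-5p, of an X-linked cluster known from testis, was at 28.64 and 30.57, which is 3.29 fold lower. The remaining pair rested on the cap: miR-517a-3p, of the placental cluster on chromosome 19, was past the cap at 0 h and at Ct 33.00 at 72 h, a change of at least 2.21, and miR-708-3p went from 32.28 to the cap, a change of at least -2.51. None of these 4 was under Ct 28 on either array. Among miRNAs with a Ct from 30 to 35 on both arrays, the widest other changes included those of miR-34a-3p (1.46), miR-129-2-3p (-1.56) and miR-218-5p (-1.50).

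After 5 days the same comparison was much wider and leaned downward. The lower side held 53 miRNAs past 3 fold (14.2%) and the higher side 16 (4.30%), while 224 (60.2%) stayed within 2 fold. The SD over miRNAs was 1.41, against 0.59 at 72 h, yet the median was -0.05, with 177 miRNAs above 0 and 195 below. Among the 53 lower miRNAs, 41 were beyond 4 fold and 15 beyond 8 fold. Their own changes at 72 h had a median of -0.39 and ran from -1.72 to 1.35. The 16 higher miRNAs, 5 of them beyond 4 fold, had a median of 0.77 at 72 h with a range from -0.33 to 2.01. The changes at 72 h and 120 h use the same 0 h wells, which also chose these miRNAs, so a like sign at 72 h is not independent of the choice. A Ct of 30 or more on both arrays was found for 29 of the 53 lower miRNAs, whereas 12 were under Ct 28 on at least 1 array, and 7 were at the cap on 1 of them. Excluding everything that did not read under Ct 30 on at least 1 array left 24 lower and 12 higher. In My5.CRBN cells at 120 h, 24 of the 53 lower miRNAs were at least 3 fold lower and 0 higher. Of the 16 higher ones, 6 were at least 3 fold higher there and 1 lower. The share of all miRNAs past 3 fold in that line is not given here. Its single values below are for some of the named miRNAs only.

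**Figure D1:**
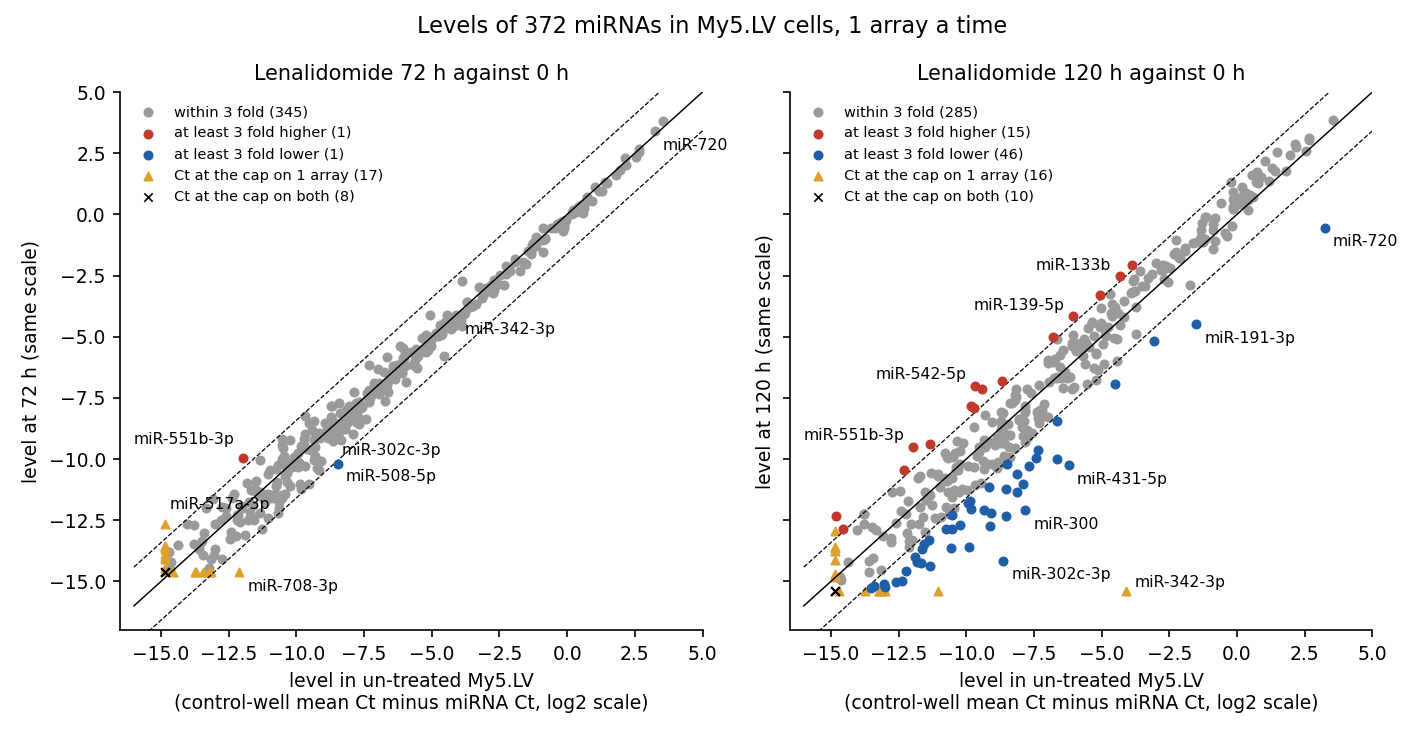
Level of each miRNA (control-well mean Ct minus miRNA Ct, log2 scale, 1 array a time) at 72 h (left) and 120 h (right) against the un-treated My5.LV array. The solid line marks equal levels, dashed lines mark 3 fold, triangles are miRNAs with a Ct at the cap on 1 array, and crosses those at the cap on both. At 72 h 332 miRNAs lay within 2 fold, at 120 h 224.

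The miRNAs that were abundant and those that were scarce lay on different sides of 0 at 120 h. To sort them on an array outside the time course, the Ct in un-treated My5.CRBN cells, the CRBN-high sister line, was used. In the 73 miRNAs under Ct 24 there, the median change in My5.LV cells was -0.16 at 72 h and 0.48 at 120 h, with 14 above 0 at 72 h and 61 above 0 at 120 h. For the 215 miRNAs at Ct 28 or more, the medians were -0.05 and -0.56. These 215 held 46 of the 53 miRNAs lower at 120 h and 10 of the 16 higher. Another normalizer adds the same constant to every change, so it cannot alter the distance between these groups. With constants from -0.14 to 0.25 at 120 h, the median ran from 0.34 to 0.73 for the 73 abundant miRNAs. For the 215 scarce ones it ran from -0.70 to -0.31. The scarce median is also close to -0.55. Any miRNA at the cap on both arrays takes that value from the control wells alone, as 10 miRNAs did. The wider spread at 120 h was not limited to low levels. Among the 73 abundant miRNAs the SD was 0.21 at 72 h and 0.83 at 120 h, or 0.55 without miR-720 and miR-191-3p. The control wells, which are also abundant, spread further too, with an SD of 0.18 at 72 h and 0.41 at 120 h. Their changes at 120 h lay on both sides of 0, from -0.72 to 0.38. How much of the wider spread of abundant miRNAs came from the measurement was not tested.

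**Figure D2:**
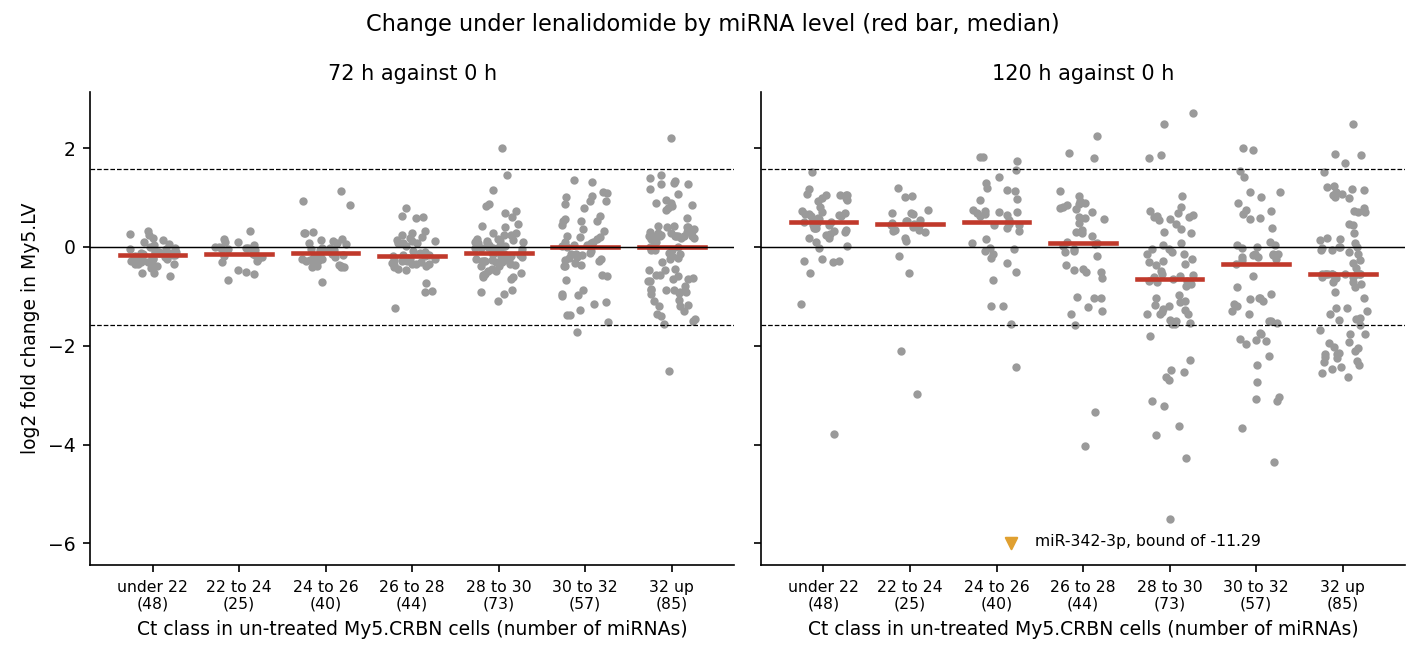
Log2 fold change of each miRNA in My5.LV cells at 72 h (left) and 120 h (right) against 0 h, grouped by Ct in un-treated My5.CRBN cells, with the number of miRNAs under each class. Red bars are medians, dashed lines 3 fold, and the triangle is miR-342-3p, drawn at the edge of the axis. Medians at 120 h were 0.50 under Ct 22, -0.65 in the class from 28 to 30 and -0.55 at Ct 32 and over. The last is the value that any miRNA at the cap on both arrays takes from the control-well mean alone, so it is not a measured change.

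The 8 miRNAs with the lowest Ct in un-treated cells separated into 7 within 2 fold at 120 h and 1 far below. miR-142-3p, the blood-cell miRNA, read 16.62, 16.57 and 15.76 at 0, 72 and 120 h, a log2 change of 0.31 at 120 h. At 120 h miR-16-5p differed by 0.44, miR-20a-5p by 0.38, miR-19a-3p by 0.03, miR-195-5p by 0.58, miR-21-5p by 0.71 and miR-106b-5p by 0.48, and at 72 h none of these 7 was further from 0 than 0.26. The exception was miR-720, a fragment of a threonine tRNA that was once listed as a miRNA. Its Ct was 16.92, 16.96 and 20.15, so that it was 13.7 fold lower at 120 h after a change of 0.17 at 72 h. In My5.CRBN cells miR-720 differed by -0.43 at 72 h and -5.81 at 120 h.

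Of the miRNAs read on both arrays, miR-302c-3p, from a cluster known for pluripotent stem cells, was lowest against un-treated cells. Its Ct was 28.80 at 0 h, 29.45 at 72 h and 33.76 at 120 h, a change of -5.51 or 45.7 fold, after -0.44 at 72 h. The other members of that cluster were already scarce and were closer to 0. miR-302a-3p, with the same seed, differed by -1.44, and miR-302b-3p was at the cap at 0 and at 120 h. In My5.CRBN cells miR-302c-3p differed by 0.19 at 72 h and -4.39 at 120 h.

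A second group came from the imprinted DLK1-DIO3 region, whose miRNAs are expressed from the maternal chromosome. miR-300 read 27.97, 28.16 and 31.69 at the 3 times and was 19.4 fold lower at 120 h. miR-431-5p read 26.37, 26.85 and 29.84, which is 16.3 fold lower. The Ct of miR-379-5p was 30.06, 30.52 and 33.18, a difference of 12.8 fold. At 72 h their log2 changes ran from -0.27 to 0.02. At 120 h in My5.CRBN cells they differed by -4.61 (miR-300), -3.42 (miR-431-5p) and -3.85 (miR-379-5p).

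Neuronal miRNAs were also among those lower at 120 h. miR-212-3p, of the miR-132 and miR-212 cluster, read 26.80, 27.35 and 29.59 and was 10.1 fold lower at 120 h. miR-124-3p, the most abundant miRNA of neurons, read 28.06, 28.32 and 30.61 and was 8.63 fold lower. miR-132-3p, from the hairpin next to miR-212 and with the same seed, read 27.97, 28.06 and 27.67, a change of -0.25. The log2 changes of these neighbours were 3.08 apart.

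Both arms of miR-155, the product of the B-cell activation gene MIR155HG, were lower. miR-155-3p read 29.24 at 0 h, 30.44 at 72 h and 31.80 at 120 h, with changes of -0.98 and -3.11. miR-155-5p read 31.21 and 32.79 and only 38.29, past the cap, at 120 h, which gives a bound of -4.35 on the change, or -1.35 if the cap is set at 32. For both arms the 72 h value lay between the other times. miR-155 was paired in the same list with miR-146, another miRNA of NF-kB signalling, and there miR-146a-5p read 20.75, 20.93 and 19.14, a change of 1.06 at 120 h. In My5.CRBN cells miR-155-3p differed by -2.17 and miR-155-5p by -1.11 at 120 h.

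The further miRNAs of this size had no shared family. miR-643, from the ZNF766 locus, read 28.69, 29.18 and 31.94, a change of -3.80 at 120 h. miR-639 read 29.27, 29.51 and 32.34, which is 12.3 fold lower. miR-708-5p, from an intron of TENM4, read 28.28, 28.88 and 30.94, which is 9.31 fold lower. In all 3 the 72 h value stayed near the un-treated one, with changes from -0.39 to -0.03. miR-186-3p behaved otherwise, at Ct 30.71, 29.57 and 33.23, so that it was higher by 1.35 at 72 h and lower by 3.08 at 120 h than at 0 h. miR-31-5p, frequently lost in tumours, read 28.28, 28.38 and 30.22, a change of -2.49.

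miR-342-3p was the only miRNA that went from a Ct under 30 to the cap at 120 h. It read 24.26 at 0 h and 24.49 at 72 h and was undetermined at 120 h, which puts it at least 2512 fold lower by the cap. Its partner arm miR-342-5p read 28.48, 28.91 and 27.30, a change of 0.62. The same assay on the 120 h array of My5.CRBN cells read 22.94, a change of 0.32 against un-treated cells of that line. Each assay has 1 well on an array, so the undetermined reading has no second well.

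The 16 miRNAs higher at 120 h had un-treated Ct values from 24.04 up to the cap, and 10 of them were under Ct 28 on at least 1 array. miR-542-5p, of an X-linked cluster with miR-424 and miR-503, read 29.85, 28.61 and 26.60, so that it was 2.74 fold higher at 72 h and 6.49 fold higher at 120 h. Its partner miR-542-3p, the more abundant arm, differed by -1.24 and -0.50. miR-551b-3p read 32.13, 30.34 and 29.10, or 5.59 fold higher at 120 h. In My5.CRBN cells miR-551b-3p differed by -1.61 at 72 h and 0.36 at 120 h.

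miR-143-3p, of smooth muscle and stroma, read 29.57, 29.17 and 26.76 and was 4.76 fold higher at 120 h. miR-10a-5p and miR-10b-5p, which lie in the HOXB and HOXD clusters, were both higher. The first read 28.83, 28.22 and 26.42 (a change of 1.85) and the second 29.999, 29.85 and 27.44 (a change of 2.00). miR-139-5p, from a PDE2A intron, read 26.21, 25.83 and 23.76 and was 3.73 fold higher. In My5.CRBN cells at 120 h these 4 differed by 2.16, 1.93, 1.08 and 1.41.

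miRNAs typical of other tissues were among them. miR-223-3p, of myeloid cells, read 29.86, 29.34 and 27.51, a change of 1.80. miR-133b, of skeletal muscle, read 24.49, 24.64 and 22.13, a change of 1.81 with 0.07 at 72 h. miR-200a-3p, of epithelia, read 31.50, 30.40 and 29.00, a change of 1.95. The other epithelial markers did not share this change. At 120 h miR-200b-3p differed by 0.71 and miR-200c-3p by 0.61, while miR-429 differed by -0.01, miR-205-5p by -0.26 and miR-141-3p by -0.52. Neuronal miR-128-3p read 25.21, 24.49 and 22.91, a change of 1.75. miR-135a-5p read 24.04, 23.11 and 21.66, a change of 1.14 at 72 h and 1.82 at 120 h, and 3.43 and 3.98 in My5.CRBN cells. The part of other cell types in these values was not tested; of the other stromal and muscle markers, miR-145-5p differed by -1.10, miR-133a-3p by -0.04, miR-206 by 0.46 and miR-1 by 1.05 at 120 h, and miR-145-3p by 1.70.

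Some of the higher values were near the limit of detection. miR-519d-3p read 34.97 at 0 h and 31.94 at 120 h (2.48), and with a cap of 32 its change turned to -0.49. miR-34c-5p was at the cap at 0 and 72 h and at 32.56 at 120 h, a change of at least 1.88. miR-145-3p read 34.72 at 0 h, was at the cap at 72 h and read 32.47 at 120 h, a change of 1.70 from 0 h.

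**Figure D3:**
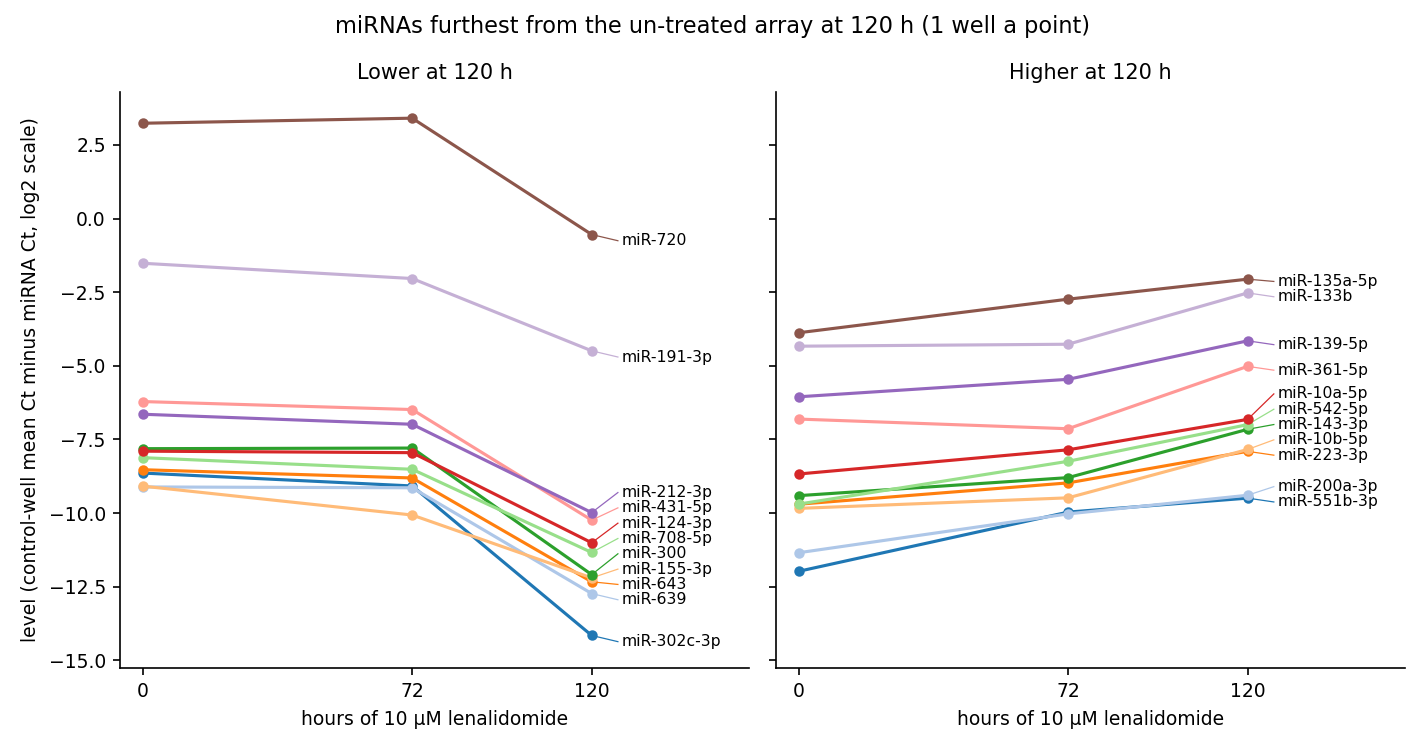
Level (control-well mean Ct minus miRNA Ct, log2 scale) of 11 miRNAs lower and 11 higher at 120 h, plotted against hours of 10 µM lenalidomide, with 1 well a point. Some lines on the left run nearly flat to 72 h and then down, as for miR-300 (0.02 at 72 h, -4.28 at 120 h). Others were already lower at 72 h, as for miR-155-3p (-0.98, then -3.11). Several on the right, such as miR-542-5p (1.45, then 2.70), were already higher at 72 h.

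The step from 72 h to 120 h was nearly as wide as that from un-treated cells. Against the 72 h array 44 miRNAs (11.8%) were lower and 16 (4.30%) higher by 3 fold or more, with a median of -0.02 and an SD over miRNAs of 1.36. This contrast uses the 120 h array again, so it is not independent of the one above. The lowest of the miRNAs read on both arrays were miR-302c-3p (-5.08), miR-186-3p (-4.43), miR-300 (-4.30), miR-720 (-3.95) and miR-431-5p (-3.76). Among the scarce miRNAs, miR-147a read 31.95 and 34.59 (-3.41) and miR-549a 31.34 and 33.82 (-3.25). On the other side were miR-218-5p (32.57 and 29.50, a change of 2.30), miR-129-2-3p (33.22 and 30.19, 2.26) and miR-361-5p (27.51 and 24.62, 2.12). miR-218-5p and miR-129-2-3p had been lower at 72 h, and at 120 h they differed from un-treated cells by 0.79 and 0.70. Without SNORD72 among the control wells, 5 miRNAs in place of 16 were past 3 fold on the higher side and 50 on the lower, which raises the share of lower ones among those past 3 fold from 73.3% to 90.9%.

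Set against both earlier arrays at once, 37 miRNAs (9.95%) were at least 3 fold below the lower of them at 120 h. miR-342-3p, miR-302c-3p, miR-300, miR-720 and miR-431-5p lay furthest below. Only 6 (1.61%) lay at least 3 fold above the higher one: miR-143-3p, miR-10b-5p, miR-34c-5p, miR-133b, miR-361-5p and miR-145-3p. Without SNORD72 among the control wells, 42 were below both arrays and 1 was above.

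The miRNAs were also read by family, gene cluster and lineage, beside a median of -0.05 over all miRNAs at 120 h with 14.2% lower and 4.30% higher. The DLK1-DIO3 region had 29 assays, with a median of -0.20 at 72 h and -1.04 at 120 h. In it 8 of 29 (27.6%) were at least 3 fold lower at 120 h and 0 were higher. Scarce miRNAs at large also leaned this way. Of the 215 at Ct 28 or more in un-treated My5.CRBN cells, 46 were lower and 10 higher, with a median of -0.56. The list was not matched to them by level. Besides the 3 above, miR-370-3p, the most abundant of the 8 at 120 h, read 24.67, 25.03 and 26.54, a change of -2.42, while miR-323b-5p differed by -2.70 and miR-411-5p by -2.55. The other end of the region's range was held by miR-495-3p (1.11) and by miR-337-5p, which was at the cap at 0 h and at 33.22 at 120 h. miR-770-5p (-0.68) and miR-410-3p (0.03), the first and the last of the assayed miRNAs along the region, were within 2 fold.

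Among the neural miRNAs, 4 of 11 were lower and 1 was higher at 120 h, with a median of -0.62. Abundant members of that list did not share this, as miR-138-5p (Ct 21.34 at 0 h) differed by 0.19 and miR-9-5p (24.34) by 0.66. The miR-506 to miR-514 cluster on the X chromosome had 2 of 5 lower, miR-506-3p (-1.97) and miR-508-5p (-1.73), and a median of -1.05. The 5 assays of the miR-302 and miR-367 cluster had a median of -1.44, and the 4 that were read at 0 and 120 h were below 0. These lists were not matched by level either, and the 215 scarce miRNAs had a median of -0.56.

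In 9 of the lists, all of them miRNA families, no member was past 3 fold at 120 h, and their medians ran from -0.06 to 0.86. All 11 let-7 and miR-98 assays, known as brakes on RAS and MYC, were above 0 at 120 h, from 0.07 for let-7g-3p to 1.28 for miR-98-5p, with a median of 0.53. At 72 h 10 of the 11 were below 0 and the median was -0.14. These values are close to those of abundant miRNAs at large. The 73 miRNAs under Ct 24 in un-treated My5.CRBN cells had a median of 0.48 at 120 h, with 61 above 0, and of -0.16 at 72 h. The 9 assays of the miR-15, miR-16, miR-103 and miR-107 group, which act on cyclins and BCL2, had the highest median of the lists (0.86), and miR-497-5p reached 1.55. In the miR-23, miR-24, miR-26 and miR-27 group the median was 0.55 over 11 assays, with miR-23a-3p at 1.52. The miR-17, miR-20, miR-93 and miR-106 family of MYC-driven clusters had a median of 0.41 over 10 assays, against 0.03 over the 7 assays of miR-18 and miR-19 and -0.06 over the 10 of miR-25, miR-32, miR-92 and miR-363, 7 of them below 0. miR-30 (0.26), miR-130 and miR-301 (0.27) and miR-29 (0.01) make up the rest. In the miR-17 family miR-106b-3p read 27.50, 27.82 and 27.91, a change of -0.97, and miR-106a-3p was at the cap on all 3 arrays.

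The myeloma, lineage and regulator lists had medians on either side of 0. The 12 assays of miR-21, miR-181, miR-221 and miR-222, elevated in myeloma, had a median of -0.44, with miR-222-5p lowest (-1.93) and miR-221-3p highest (0.75). The 10 blood-lineage assays had a median of -0.07, with miR-486-3p lowest (-2.43), miR-223-3p highest (1.80) and erythroid miR-451a at 0.10. The 10 assays of p53-linked miR-34, miR-192, miR-194 and miR-215 had a median of -0.15, and miR-34a-5p differed by 0.07. The 11 assays of miR-10, miR-99, miR-100 and miR-125 held 2 higher and 1 lower, miR-99b-5p (-1.90). The 8 muscle miRNAs had a median of 0.50, with miR-499a-3p lowest (-2.25). The 9 assays of the placental cluster on chromosome 19 were mostly near the cap and had the highest median at 72 h (0.74), which was 0.08 at 120 h. Medians of the lists of miR-18 and miR-19, miR-25, miR-29, blood lineage, p53, miR-200 and chromosome 19 miRNAs changed sign between normalizers at 120 h, and those of the other lists did not.

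**Figure D4:**
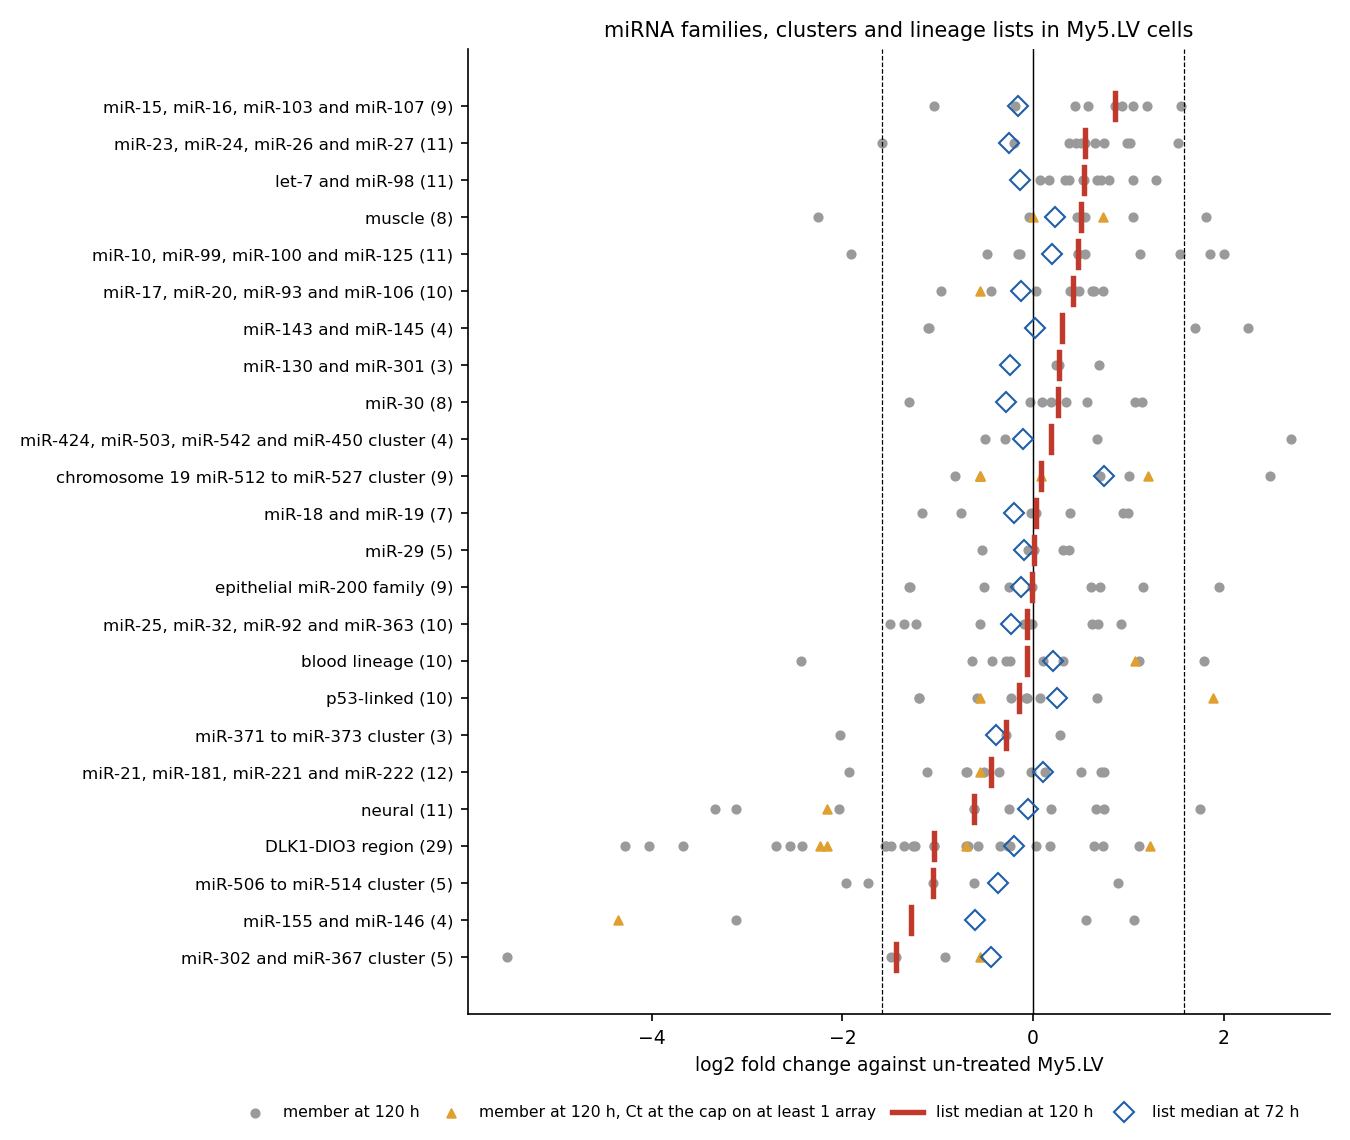
Log2 fold change at 120 h of the members of 24 miRNA lists in My5.LV cells (dots, or triangles where a Ct was at the cap), with the list median at 120 h (red bar) and at 72 h (open diamond). The number of assays stands after each name and dashed lines mark 3 fold. List medians at 72 h lie between -0.61 and 0.74, at 120 h between -1.44 and 0.86.

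miRNAs with 1 seed did not all move as a family. The seed AAGUGCU, shown above for miR-302c-3p, is carried by 6 of the assayed miRNAs. These ranged from -5.51 to 1.21 at 120 h, with miR-372-3p at -2.02 and miR-373-3p at 0.28. miR-300 (-4.28) and miR-381-3p (-1.25) share the seed AUACAAG and a chromosomal cluster. Among near-identical miRNAs, miR-133b (1.81) and miR-133a-3p (-0.04) are 1 edit apart. Such assays can read each other's template, and how far they do was not tested. Over all 38 pairs within 2 edits of each other, the median difference in log2 change was 0.15 at 72 h and 0.36 at 120 h, and 5 pairs were at least 3 fold apart at 120 h against 1 at 72 h. The 9 let-7 and miR-98 5p strands, with the seed GAGGUAG, kept the closest together of the large families, from 0.17 to 1.28.

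Base composition went with the change at 120 h but not with that at 72 h. Over the 337 miRNAs with a RefSeq sequence, Spearman's rho between GC content and the log2 change was -0.24 at 120 h and 0.05 at 72 h. The points share arrays and control wells. The 73 miRNAs under 40% GC had a median of 0.31 at 120 h and the 33 at 60% or more one of -0.65. The share at least 3 fold lower did not follow GC content. It was 8.22% under 40% GC, 17.1% from 40 to 50%, 13.9% from 50 to 60% and 9.09% at 60% or more. Of all 337 it was 13.4%. By first base, the 148 miRNAs that begin with U had a median of 0.38, the 92 with A -0.32, the 68 with C -0.16 and the 29 with G -0.61. Of the 337 miRNAs with a sequence 148 begin with U, as do 11 of the 14 higher and 20 of the 45 lower ones. Among miRNAs under Ct 28 in un-treated My5.CRBN cells, the medians were 0.55 for U (n = 82), 0.28 for A (n = 28), 0.28 for C (n = 28) and -1.10 for G (n = 6). In My5.CRBN cells at 120 h, rho with GC content was -0.12.

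The 2 arms of a hairpin come from 1 transcript and differ in how much of each is kept. Both were assayed for 86 hairpins, and in 74 both were under Ct 35 on all 3 arrays. Here the main arm is the one with the lower Ct in un-treated My5.CRBN cells. At 72 h the arms of 3 of the 74 hairpins differed in their change by at least 3 fold, and at 120 h those of 22. The median difference between arms went from 0.41 to 0.96. Main arms had a median of 0.31 and minor arms of -0.16 at 120 h, and of the 74 arms of each kind, 3 main and 8 minor ones were at least 3 fold lower and 5 main and 2 minor ones at least 3 fold higher, beside 14.2% and 4.30% of all miRNAs. Other normalizers shift both medians by the same constant, so the distance between them was fixed. The median of the main arms ran from 0.17 to 0.56 and that of the minor arms from -0.30 to 0.10. Minor arms had a median Ct of 29.3 at 0 h against 24.6 for main arms, so that arm and level cannot be told apart in this comparison.

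Single hairpins show how far apart the strands lay. For miR-191, an abundant miRNA in an intron of DALRD3, the 5p arm read 19.996, 20.33 and 19.18, a change of 0.26. Its 3p arm read 21.68, 22.41 and 24.10, or 7.85 fold lower, although it is among the abundant assays of the array. For miR-186 the 5p arm differed by 0.30 and the 3p arm by -3.08. The arms of miR-143 differed by 2.25 (3p) and -1.09 (5p), and those of miR-10b by 2.00 (5p) and -0.14 (3p). By contrast, both arms were lower for miR-31 (-2.49 for 5p and -1.75 for 3p), for miR-124 (-3.11 for 3p and -2.04 for 5p) and for miR-155. In My5.CRBN cells at 120 h miR-191-3p differed by -5.54, miR-191-5p by -0.50, miR-186-3p by -3.24 and miR-186-5p by 0.20.

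**Figure D5:**
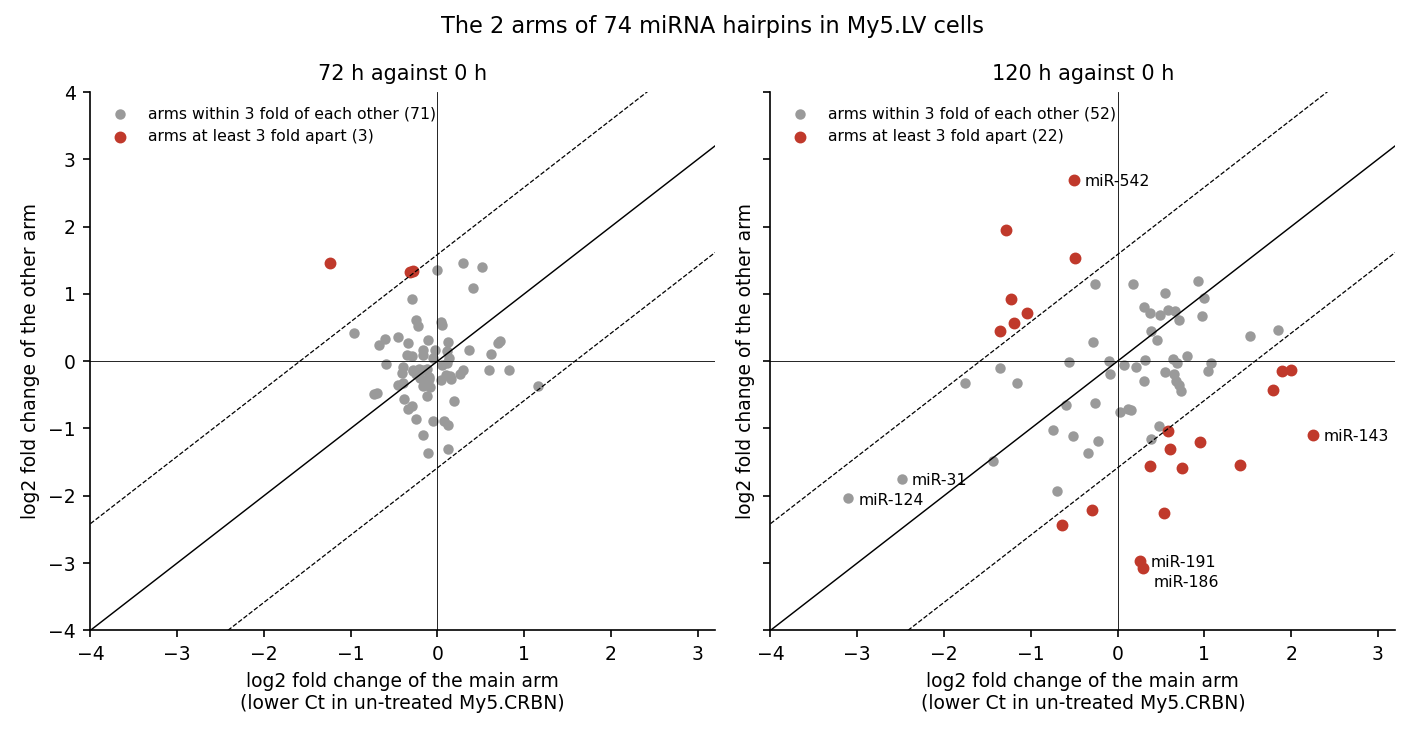
Log2 fold change of the main and of the other arm of 74 hairpins with both arms under Ct 35 on all 3 arrays, at 72 h (left) and 120 h (right) against un-treated My5.LV cells. The solid line marks equal change and the dashed lines 3 fold between arms. The arms of 3 hairpins were at least 3 fold apart at 72 h and of 22 at 120 h, with miR-186, miR-143 and miR-191 furthest below the line.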

How the data were processed

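Per the methods, cDNA from total RNA was made with the miScript II kit and measured on 384-well miScript miRNA PCR Arrays. The table deposited by the authors gives 1 Ct per well, without normalization, on a scale in which a higher number is a lower level. A deposited table of the authors' own fold changes holds their comparisons with the un-treated My5.LV array and was not used. Arrays were assigned by the labels and columns by their names, with 0 columns left unmapped. Ct values were capped at 35 and the mean of 6 small-RNA control wells was subtracted. miRNAs at least 3 fold apart were counted over all assays, and the percentage of all miRNAs past that threshold was printed with each count. No test was made, since each time has 1 array. Arrays have no sequencing depth, and each value is that of a single well.

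The comparison, the 24 lists and the tests were chosen with earlier results of these data known. After the files were seen, miR-511 and miR-512 were taken out of the miR-506 to miR-514 list, since they lie elsewhere, and an empty list was dropped. miRNAs were named by rule: in each comparison the 10 largest changes each way past 3 fold under Ct 35 on both arrays and Ct 30 on 1, those at the cap on 1 array with the other under Ct 30, and the 3 largest each way at Ct 30 to 35 on both; the 8 lowest un-treated Ct values; both arms of hairpins with an arm past 3 fold at 120 h; the extremes of each list; and miR-106a-3p, miR-106b-3p, miR-720 and miR-451a. Chosen after their values were seen were let-7g-3p, miR-132-3p, miR-138-5p, miR-302b-3p, miR-323b-5p, miR-34a-5p, miR-370-3p, miR-381-3p, miR-410-3p, miR-411-5p, miR-495-3p, miR-517a-3p, miR-770-5p and miR-9-5p. Lineage markers were fixed apart from these.

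Mature sequences and positions came from RefSeq (GRCh38.p14) and matched 337 names, with 35 unmatched. Alternatives were the global mean, RNU6 alone or the reverse transcription control wells as normalizer, each control well left out, a cap of 32, and filters at Ct 35 and Ct 30. The calculation was tested on simulated data. Scripts ran in Python 3.11.15 with SciPy 1.17.1, pandas 2.3.3 and NumPy 2.4.6, and plots were drawn with Matplotlib 3.10.9.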

Additional observations from a re-analysis of the deposited data

Results flagged for a closer look

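The following miRNAs had changes of opposite sign in the 2 cell lines, each past 3 fold as computed, with 1 array on each side, so the difference was not tested. At 72 h miR-508-5p had log2 changes of -1.72 (My5.LV) and 1.63 (My5.CRBN). At the same time miR-551b-3p had changes of 2.01 (My5.LV) and -1.61 (My5.CRBN). The lines also differed in both before treatment. In un-treated My5.CRBN cells miR-551b-3p fell in the class from Ct 28 to 30 and miR-508-5p in that from 30 to 32. In un-treated My5.LV cells the first was scarcer than that and the second more abundant. At 120 h miR-519d-3p, which was close to the cap at 0 h in My5.LV cells and at it in My5.CRBN cells, had values of 2.48 and -1.59. The second is the most that the change can have been downward, since its 0 h well was capped, so that a decrease past 3 fold in My5.CRBN cells is not shown.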

How the results depend on the processing

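The limits are a single well per miRNA and time, an un-treated array as the reference for both times, and 120 h control wells that moved apart. No paired analysis was possible because each condition has 1 array. Other normalizers add a constant to all changes, from -0.14 (without SNORD72) to 0.25 (global mean) at 120 h against 0 h. With a cap of 32, lower at 120 h against 0 h were 33 miRNAs in place of 53, against 72 h 26 in place of 44, and below both earlier arrays 23 in place of 37, while 10 in place of 16 were higher than at 72 h. With the filter of Ct 30 on at least 1 array these became 24, 22, 21 and 10. At 72 h against 0 h, in place of 2 higher and 2 lower, there were 1 and 1 with a cap of 32 and under Ct 35 on both arrays, 0 and 1 with the Ct 30 filter, and 5 lower with RNU6 alone. miR-519d-3p at 120 h turned to -0.49 with a cap of 32.

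Leaving out 1 control well at a time gave from 2 to 3 lower at 72 h, from 15 to 20 higher and from 53 to 66 lower at 120 h against 0 h, from 5 to 19 higher and from 40 to 50 lower against 72 h, from 34 to 42 below both earlier arrays and from 1 to 7 above, with 5 and 1 both without SNORD72. The 89 named changes past 3 fold kept their direction in 1006 of 1007 recomputed values and stayed past 3 fold in 973. Their direction was largely fixed in advance and is no measure of robustness. Other normalizers move a change by at most 0.25, and the Ct filters drop miRNAs without changing their values. Only the cap of 32 could reverse a direction. Those lost numbered 14 with a cap of 32 and 12 without SNORD72.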
